A study of Mus musculus with 14 samples.

Results

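Immediate early transcription factors are DNA-binding proteins whose genes are transcribed within minutes of a signal, before any new protein has to be made. The 10 members described here were taken by gene symbol: Fos, Fosb and Fosl2 of the Fos family, Jun, Junb and Jund of the Jun family, the zinc finger factor Egr1, the orphan nuclear receptor Nr4a1, the bZIP factor Atf3 and the nuclear protein Ier2. All 10 were listed in all 12 RNA libraries, among 23597 gene symbols used in the set of compound OB and 54540 in the set of compound PD.

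RNA had been sequenced from cultured BFU-E, the burst-forming unit-erythroid cells that are the early committed progenitors of red blood cells. The cells came from C57BL/6 mouse fetal liver and were kept in StemSpan SFEM II medium. Of the 4 groups, 3 libraries had compound OB at 100 µM with 3 DMSO (solvent) libraries of their own, and 3 had compound PD at 3 nM with another 3 DMSO libraries. The culture time, the age of the embryos and the way BFU-E were isolated are not given in the labels, both compounds are known there only by their code names, and no genotype other than the strain is named. Nothing in the labels ties a replicate to a culture or an animal of its own, so p-values measure only the spread between these libraries, which may be technical. A CREB chromatin immunoprecipitation and its input belong to the same series and are not analysed here.

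Proteins of the Jun family bind DNA as pairs with each other or with a Fos protein, and together they make up the factor AP-1. Fos proteins do not pair with themselves and so need a Jun partner. Serum, cytokines, cAMP and stress reach these genes through MAP kinases and through factors already present in the cell, among them SRF at the CArG box and CREB at the cAMP response element (CRE), and the messages are short-lived, so their levels are sensitive to handling. In erythroid progenitors, stem cell factor and erythropoietin are among the signals known to switch them on.

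Promoters are shown for the 5 members whose window holds the CRE half-site, because CREB is the factor the series examined in these cells. The windows run from 250 bases before to 50 bases after a RefSeq start in GRCm38.p6, the assembly that mm10 names, and were found for 8 of the 10 members (Fos, Fosb, Fosl2, Jun, Junb, Jund, Nr4a1 and Atf3). The sequences are RefSeq's, read 5′ to 3′ on the gene's strand. Capitals mark the half-site TGACG, which reads CGTCA where it lies on the other strand, and the TATAAA motif on the gene's strand. They are at chr12:85473640-85473939 on the plus strand for Fos, chr7:19309996-19310295 on the minus strand for Fosb, chr8:84978699-84978998 on the minus strand for Junb, chr15:101266596-101266895 on the plus strand for Nr4a1 and chr1:191183284-191183583 on the minus strand for Atf3. The starts used for Fosb and Nr4a1 lie inside the annotated gene span, so other starts of these 2 genes are outside the windows shown.
Fos: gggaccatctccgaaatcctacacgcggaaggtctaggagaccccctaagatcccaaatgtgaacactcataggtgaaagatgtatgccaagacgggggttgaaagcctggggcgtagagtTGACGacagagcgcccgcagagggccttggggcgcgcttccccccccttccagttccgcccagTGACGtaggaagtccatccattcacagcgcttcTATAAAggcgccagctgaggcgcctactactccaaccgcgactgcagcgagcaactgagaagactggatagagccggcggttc
Fosb: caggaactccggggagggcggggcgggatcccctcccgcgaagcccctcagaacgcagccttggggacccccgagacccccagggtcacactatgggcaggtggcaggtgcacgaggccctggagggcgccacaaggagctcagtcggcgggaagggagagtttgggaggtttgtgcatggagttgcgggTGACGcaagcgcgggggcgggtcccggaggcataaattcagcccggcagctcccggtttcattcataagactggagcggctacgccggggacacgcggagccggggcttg
Junb: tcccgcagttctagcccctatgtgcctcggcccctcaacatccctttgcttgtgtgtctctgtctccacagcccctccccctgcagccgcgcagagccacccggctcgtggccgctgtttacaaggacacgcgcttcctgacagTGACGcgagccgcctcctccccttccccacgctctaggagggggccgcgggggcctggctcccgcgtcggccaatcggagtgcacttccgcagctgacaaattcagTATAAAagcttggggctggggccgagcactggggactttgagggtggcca
Nr4a1: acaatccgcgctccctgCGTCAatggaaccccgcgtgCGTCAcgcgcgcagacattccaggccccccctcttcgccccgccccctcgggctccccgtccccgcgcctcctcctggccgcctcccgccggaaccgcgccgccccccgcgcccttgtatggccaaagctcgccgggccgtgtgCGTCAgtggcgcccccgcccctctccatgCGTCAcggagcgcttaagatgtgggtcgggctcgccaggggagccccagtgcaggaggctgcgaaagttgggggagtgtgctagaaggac
Atf3: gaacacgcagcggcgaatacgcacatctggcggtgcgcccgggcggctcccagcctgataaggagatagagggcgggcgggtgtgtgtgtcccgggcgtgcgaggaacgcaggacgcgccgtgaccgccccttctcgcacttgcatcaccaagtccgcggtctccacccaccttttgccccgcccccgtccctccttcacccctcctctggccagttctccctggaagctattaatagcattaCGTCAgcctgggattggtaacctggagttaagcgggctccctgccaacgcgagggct

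The half-site, searched on both strands, was present in 5 of the 8 member promoters and in 20.8% of the 32851 promoters in the table. Fos held it at −129 to −125 and at −66 to −62 from the start, Fosb at −60 to −56, Junb at −106 to −102 and Atf3, on the other strand, at −7 to −3. Nr4a1 held it 4 times on the other strand, beginning at −233, −213, −69 and −40. The full CRE, TGACGTCA, was in 0 of 8 member windows and in 1.79% of all promoters. The AP-1 site, TGANTCA, was likewise in 0 of 8, against 7.81% of all. The CArG box was in 0 of 8, against 1.63%, and a missing match says only that these letters are not in the window. TATAAA was present on the gene's strand in 2 of 8 member windows (Fos at −33 to −28 and Junb at 1 to 6), against 8.32% of all. The GC box GGGCGG, on either strand, was in 6 of 8, against 35.7%, and CCAAT, on either strand, in 3 of 8, against 37.4%. These matches describe letters, not binding.

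In GRCm38.p6 the genes lie on chromosome 12 at 85473890 to 85477274 (Fos), chromosome 7 at 19302696 to 19310118 (Fosb), chromosome 5 at 32136472 to 32157840 (Fosl2) and chromosome 4 at 95049036 to 95052222 (Jun). Chromosome 8 holds 3 of them: Jund at 70697739 to 70700616, Ier2 at 84661331 to 84662852 and Junb at 84976909 to 84978748. Egr1 lies on chromosome 18 at 34861207 to 34864956, Nr4a1 on chromosome 15 at 101253902 to 101274795 and Atf3 on chromosome 1 at 191170296 to 191183333. All 10 are annotated as protein coding.

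Levels are the authors' FPKM values, fragments scaled to the length of a gene and to the mapped fragments of its library, and their sequencing depth is unknown. Each library lists values that sum to 671763 to 716428 FPKM in the OB set and to 753479 to 882331 FPKM in the PD set. The 8 erythroid progenitor markers were detected in all 12 libraries, with a summed level of 2321 to 2537 FPKM with compound OB against 2502 to 2682 FPKM in its DMSO libraries, and of 1467 to 1957 FPKM with compound PD against 2061 to 2801 FPKM in its DMSO libraries. The ribosomal RNA precursor Rn45s had 12380 FPKM in OB DMSO replicate 2, against 175 to 955 FPKM in the other OB set libraries, and its part in the OB results was not tested. Replicate 1 also differed from the others, and the shares that follow were worked out for replicate 1 only. Set against the mean of replicates 2 and 3 of its own group on the log2(FPKM + 1) scale, it differed by at least 0.5 at 12.1% of genes with compound OB and at 26.6% in OB DMSO, and at 17.5% of genes with compound PD and at 41.2% in PD DMSO. The comparisons of the compounds are therefore also given without replicate 1, an alternative chosen after these values were seen.

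Jund, the Jun family member that is usually made steadily rather than in bursts, had the highest mean level of the 10 in each of the 4 groups. In the OB set it had 65.26, 32.49 and 29.64 FPKM with compound OB, against 73.91, 24.59 and 30.05 FPKM in DMSO. Ier2, an early response gene that codes for a regulator of transcription, came next with 30.88, 29.68 and 25.46 FPKM with compound OB, against 31.98, 19.96 and 22.55 FPKM in DMSO. Replicate 1 was the highest library of each group for both genes, and the groups overlapped.

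Junb, a Jun family member that often opposes Jun, had 23.56, 16.53 and 14.97 FPKM with compound OB, against 24.33, 12.23 and 13.47 FPKM in DMSO. Jun itself, the partner through which AP-1 drives proliferation genes in many cells, had 16.99, 9.77 and 8.37 FPKM with compound OB, against 17.74, 8.41 and 9.37 FPKM in DMSO. The ranges of Jund and Ier2 overlapped in both groups, as did those of Junb and Jun, so their order is not beyond the spread. Ier2 stood above Junb without overlap with compound OB but not in DMSO. Atf3, a stress-induced factor that mostly represses its targets, had 4.48, 5.04 and 5.57 FPKM with compound OB, against 4.20, 3.74 and 4.17 FPKM in DMSO, and lay below Jun without overlap in both groups.

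Egr1, a zinc finger factor that MAP kinase signals switch on through SRF, had 2.33, 5.22 and 4.55 FPKM with compound OB, against 2.14, 3.21 and 3.48 FPKM in DMSO. Nr4a1, a nuclear receptor with no known natural ligand that cAMP and calcium signals induce, had 1.68, 1.57 and 1.70 FPKM with compound OB, against 1.93, 1.60 and 1.38 FPKM in DMSO. The Fos family was under 1 FPKM in every library of the OB set. Fosl2, also called Fra-2, had 0.41, 0.35 and 0.32 FPKM with compound OB, against 0.83, 0.30 and 0.28 FPKM in DMSO. Fos, the founding member, had 0.23, 0.17 and 0.35 FPKM with compound OB, against 0.33, 0.39 and 0.09 FPKM in DMSO. Fosb, which is also made in a shorter stable form in other tissues, had 0.05, 0.13 and 0.05 FPKM with compound OB, against 0.02, 0 and 0.03 FPKM in DMSO. In each OB group Nr4a1 lay above Fosl2 without overlap, the ranges of Fosl2 and Fos overlapped, and Fosb lay below Fos without overlap.

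In the PD set all 10 members passed 1 FPKM on average, the Fos family included. Fos had 16.24, 17.32 and 13.39 FPKM with compound PD, against 16.48, 9.34 and 12.94 FPKM in DMSO. Among the 22270 genes listed in both sets, the percentile of Fos within a library was 73.9 to 77.2 with compound PD and 69.2 to 79.1 in PD DMSO. In the OB set it was 49.7 to 52.7 with compound OB and 46.8 to 53.2 in OB DMSO. Set, compound, dose and annotation go together here, so the levels of the sets stand side by side without a test, and cells, culture and processing cannot be told apart as sources of the gap.

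**Figure D1:**
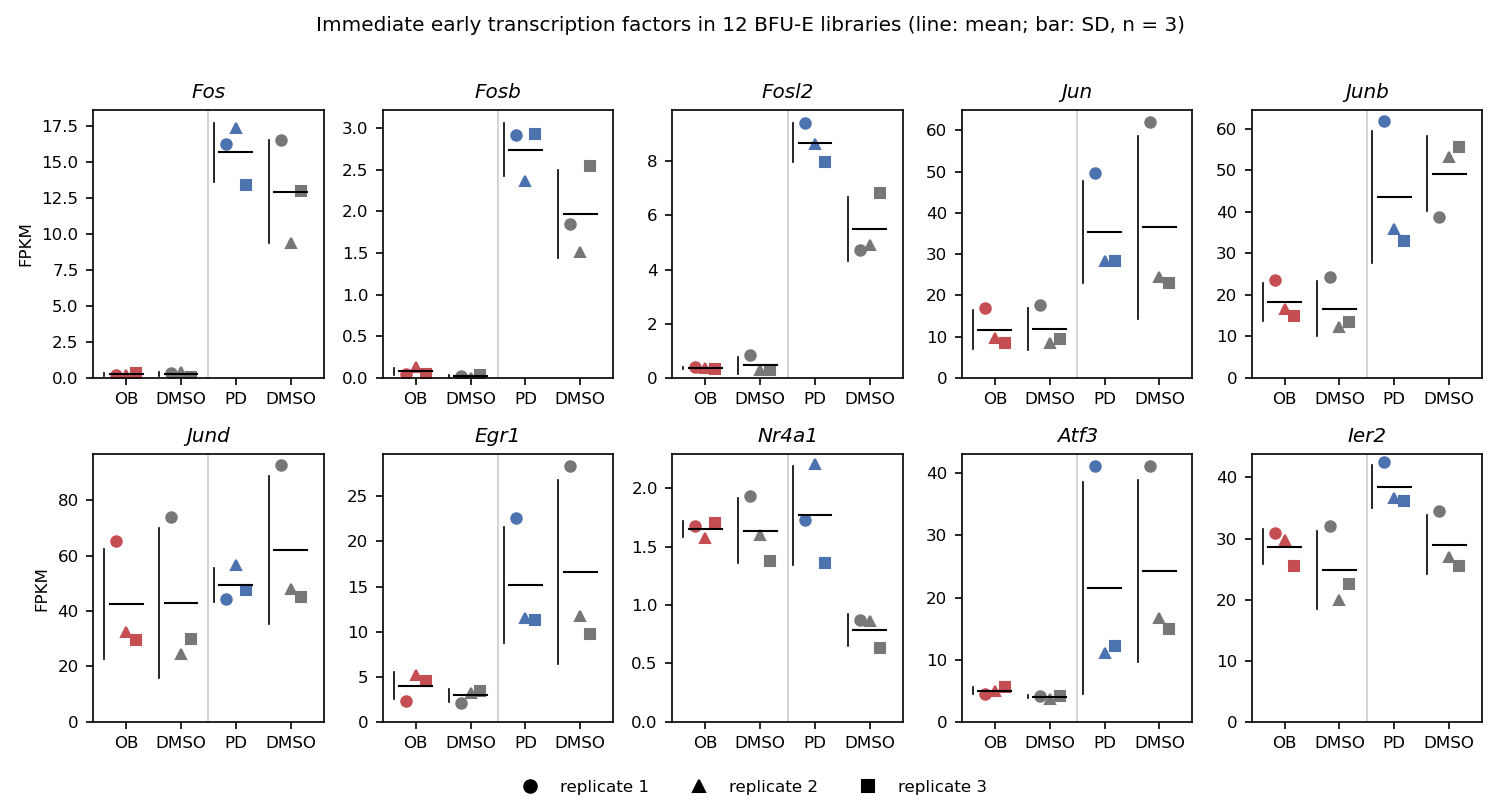
FPKM of each of the 10 members (y axes, linear, each with its own range) in compound OB, its DMSO, compound PD and its DMSO libraries. Points are libraries with a shape for each replicate number, horizontal lines are means and vertical bars are the SD (n = 3). The 3 Fos family genes sit under 1 FPKM in the OB set, and Nr4a1 with compound PD lies between 1.36 and 2.21 FPKM, above all 3 PD DMSO libraries.

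Within the PD set the highest means were those of Jund, Junb, Ier2 and Jun. Jund had 44.53, 56.46 and 47.55 FPKM with compound PD, against 92.70, 48.00 and 45.24 FPKM in DMSO, where replicate 1 alone set the spread of the DMSO group. Junb had 61.80, 35.93 and 32.99 FPKM with compound PD, against 38.80, 53.08 and 55.55 FPKM in DMSO. Replicate 1 was the highest Junb library with compound PD and the lowest in DMSO, and the reverse held for Jund. Ranges of neighbours in the order of means overlapped from Jund down to Egr1 with compound PD and from Jund down to Fos in PD DMSO. Below those, Fosl2, Fosb and Nr4a1 followed in both groups, each without overlap with the one above it.

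The share of the Fos family in the summed FPKM of the 6 Fos and Jun genes was 15.5%, 19.0% and 18.3% with compound PD. In PD DMSO it was 10.6%, 11.2% and 15.3%, and the groups did not overlap but nearly touched. In PD DMSO replicate 1 the Fos family summed to 23.04 FPKM, the highest of its group, beside 193.57 FPKM of the Jun family. With compound OB the Fos family share was 0.648%, 1.09% and 1.34%, against 1.01%, 1.50% and 0.751% in OB DMSO, with overlap. Jund alone made up 55.3% to 61.7% of the Jun family with compound OB, against 54.4% to 63.7% in OB DMSO. With compound PD its share was 28.5% to 46.8%, against 36.5% to 47.9% in PD DMSO. Within the Fos family of the PD set Fos held the larger part, 55.1% to 61.1% with compound PD against 57.9% to 71.5% in DMSO. Fosl2 held 30.5% to 33.0% with compound PD against 20.4% to 31.2% in DMSO.

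**Figure D2:**
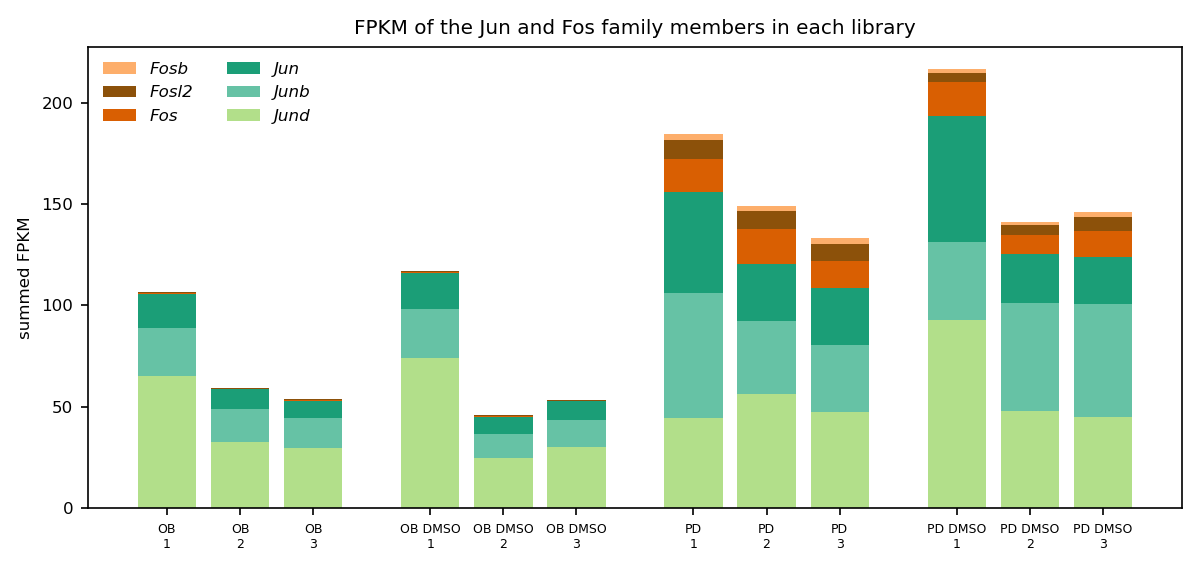
Stacked FPKM (y axis, linear from 0) of the 6 Fos and Jun family genes in each of the 12 libraries, with the compound libraries (OB, PD) left of their DMSO libraries and the replicate number under each bar. Jun family genes fill nearly all of each bar in the OB set, and the Fos family makes up 10.6% to 19.0% of a bar in the PD set.

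Several members carried the difference of replicate 1. In the OB set Jun, Junb and Jund, 3 of the 7 members tested, were at least 0.5 higher on the log2 scale in replicate 1 than in the mean of replicates 2 and 3 in both groups, as were 6.59% of all genes. For Jund the difference was 1.05 with compound OB and 1.41 in DMSO, for Jun 0.84 and 0.92, and for Junb 0.55 and 0.87. Egr1 went the other way, at −0.82 with compound OB and −0.47 in DMSO. Summed markers of neutrophils and their precursors were also higher in replicate 1, at 482.59 FPKM with compound OB against 163.66 and 179.2 FPKM in its other libraries, and at 577.53 FPKM in DMSO against 145.46 and 143.76 FPKM in the other DMSO libraries. Summed megakaryocyte markers were 953.59 FPKM in replicate 1 with compound OB, against 569.27 and 611.31 FPKM in the others, and 1338.47 FPKM in replicate 1 of DMSO, against 472.51 and 554.93 FPKM. Their part in the level of the Jun family was not tested.

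In the PD set Jun, Egr1 and Atf3, 3 of 10 members, were at least 0.5 higher in replicate 1 of both groups, against 2.3% of all genes. Jun had 49.67, 28.22 and 28.23 FPKM with compound PD, against 62.07, 24.48 and 22.99 FPKM in DMSO. Egr1 had 22.58, 11.57 and 11.30 FPKM with compound PD, against 28.34, 11.76 and 9.76 FPKM in DMSO. Atf3 had 41.16, 11.04 and 12.22 FPKM with compound PD, against 41.16, 16.72 and 14.98 FPKM in DMSO. For these 3 genes replicate 1 of either group was above all 4 other libraries. All 6 megakaryocyte markers were highest in replicate 1 of each group, and summed to 7395.18 FPKM in replicate 1 with compound PD, against 4146.83 and 4623.74 FPKM in its other libraries, and to 4482.24 FPKM in replicate 1 of DMSO, against 2295.37 and 2270.13 FPKM. The 6 mast cell and basophil markers did not move together. Cpa3 and Mcpt4 carried their sum and were highest in replicate 1 of both groups, while Mcpt8 was lowest there, at 5.42 FPKM against 17.67 and 14.97 FPKM with compound PD and at 2.63 FPKM against 27.96 and 31.05 FPKM in DMSO. Their part was not tested.

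**Figure D3:**
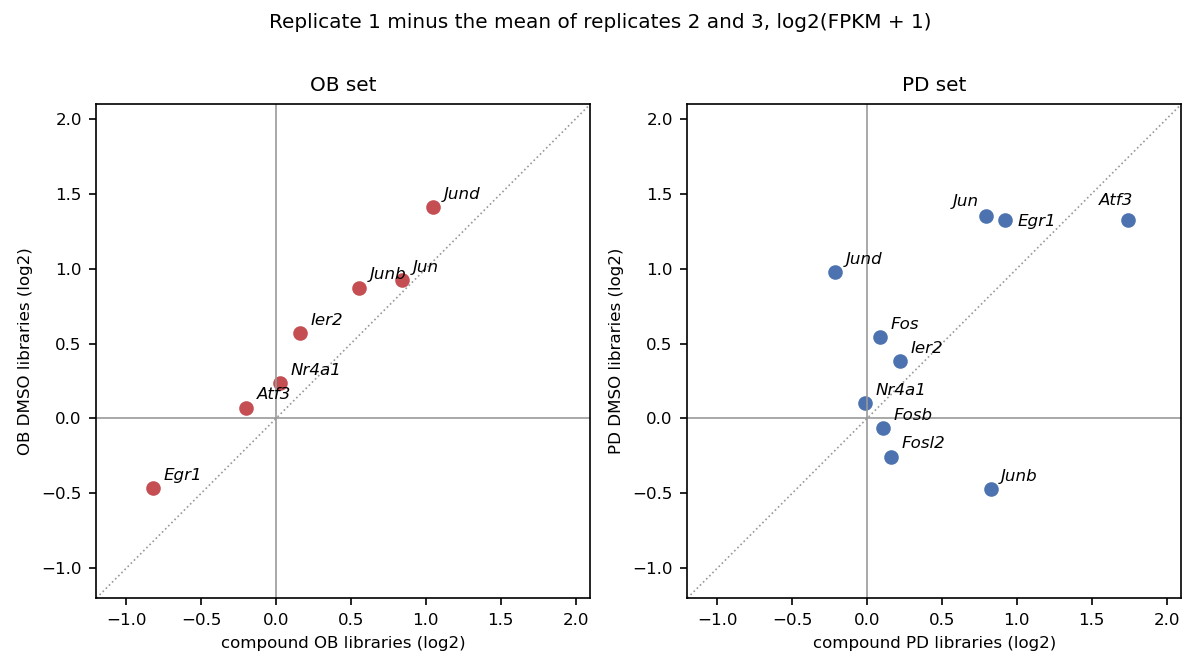
Replicate 1 minus the mean of replicates 2 and 3 on the log2(FPKM + 1) scale, in compound libraries (x axis) and in their DMSO libraries (y axis), for the members tested in each set; the dotted line marks equal differences. Jun lies in the upper right in both sets, joined by Junb and Jund in the OB set and by Egr1 and Atf3 in the PD set, while Junb of the PD set lies at 0.83 and −0.47.

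Compound PD was set against its DMSO to ask which of the members it moved. None of the 10 passed, and 3 of them, Fosl2, Nr4a1 and Ier2, were higher in all 3 compound PD libraries than in all 3 DMSO libraries. With limma on log2(FPKM + 1) and Benjamini-Hochberg adjustment over 11887 genes, 3 genes passed an adjusted p of 0.05 (0.0252%), none of them a member. At an unadjusted p under 0.05 there were 2 of the 10 members, Fosl2 and Ier2, against 10.7% of all genes. A higher level with no overlap was found for 3 of the 10 members and for 13.1% of all genes, and a lower one for 0 of the 10 members and for 3.72% of all genes. Of the 3, Nr4a1 averaged 0.787 FPKM in DMSO and passed the filter of 1 FPKM only through the compound PD libraries. Its place in these counts is therefore partly set by the filter. The median log2 difference of the members was 0.17 with 6 of 10 above 0, and that of all genes was 0.06 with 59.1% above 0. The members' median turned on single libraries, at 0.43 with 9 of 10 above 0 without PD DMSO replicate 1 (where that of all genes was −0.02) and at −0.03 with 5 of 10 above 0 without PD DMSO replicate 2. It was 0.09 without PD DMSO replicate 3 and 0.04 without compound PD replicate 1, with 5 of 10 above 0 each. In bulk RNA, fewer cells of a type and less RNA per cell cannot be told apart, and this holds for each difference here.

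Nr4a1 had 1.73, 2.21 and 1.36 FPKM with compound PD, against 0.87, 0.86 and 0.63 FPKM in DMSO. The lowest compound PD library was 0.49 FPKM above the highest DMSO library. The means were 1.77 ± 0.426 FPKM with compound PD and 0.787 ± 0.136 FPKM in DMSO (SD, n = 3 each), a ratio of 2.25. On the log2(FPKM + 1) scale, which understates changes of so low a gene, the difference was 0.62 (SE 0.28, 95% interval −0.02 to 1.26), with a limma adjusted p = 0.480.

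Fosl2 had 9.42, 8.65 and 7.99 FPKM with compound PD, against 4.71, 4.92 and 6.84 FPKM in DMSO. The gap between the groups was 1.15 FPKM, and replicate 3 held the lowest compound PD value and the highest DMSO value. Means of 8.69 ± 0.716 FPKM with compound PD and 5.49 ± 1.17 FPKM in DMSO (SD, n = 3 each) gave a ratio of 1.58. The log2 difference was 0.59 (SE 0.21, 95% interval 0.11 to 1.07), with a limma adjusted p = 0.350.

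Ier2 had 42.56, 36.64 and 36.22 FPKM with compound PD, against 34.46, 27.03 and 25.47 FPKM in DMSO. The groups were 1.76 FPKM apart, and replicate 1 was the highest library of each. The log2 difference was 0.40 (SE 0.17, 95% interval 0.01 to 0.80), with a limma adjusted p = 0.447. Within replicate numbers the differences were 0.30, 0.43 and 0.49 for Ier2, and 0.55, 0.79 and 0.53 for Nr4a1. For Fosl2 they were 0.87, 0.70 and 0.20. As these 3 genes had no overlap, every such difference had to be above 0, so this adds no support. Fosb, which overlapped, was also above 0 in each, at 0.46, 0.43 and 0.15, as were 20.8% of all genes. Same-numbered PD libraries share only a number.

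Fosb had 2.92, 2.37 and 2.93 FPKM with compound PD, against 1.85, 1.51 and 2.55 FPKM in DMSO, with 1 DMSO library inside the compound PD range. Its log2 difference was 0.34 (SE 0.25) with a limma adjusted p = 0.753. Fos, for which the only large difference was between the replicate 2 libraries, gave 0.28 (SE 0.23, 95% interval −0.23 to 0.80) with a limma adjusted p = 0.786. The intervals of the remaining 5 members all held 0, and those of the 3 genes led by replicate 1 were wide. Atf3 gave −0.28 (SE 0.53, 95% interval −1.48 to 0.93), Egr1 −0.05 (SE 0.40) and Jun 0.06 (SE 0.38). Jund gave −0.25 (SE 0.27) and Junb −0.21 (SE 0.25). Of these 5, the limma adjusted p was lowest for Jund, at 0.872.

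Junb is the member whose result depended most on replicate 1. Within replicate numbers its log2 differences were 0.66, −0.55 and −0.73. Without replicate 1 of either group it fell by 0.64 on the log2 scale with compound PD (SE 0.11, limma adjusted p = 0.0464), at 35.93 and 32.99 FPKM with compound PD against 53.08 and 55.55 FPKM in DMSO. It was then 1 of 10 members called, where 2.12% of genes were called and 0.395% were called lower. That fit rests on 2 libraries a group and draws its spread almost wholly from the other genes. With replicate number as a block in that fit, 0 of the 10 members were called, though same-numbered PD libraries share only a number. For Jund the difference was −1.04 in replicate 1, 0.23 in replicate 2 and 0.07 in replicate 3, and without replicate 1 it was 0.15 (SE 0.12, limma adjusted p = 0.533). Ier2, Fosl2 and Nr4a1 were at 0.46, 0.45 and 0.66 without replicate 1, with limma adjusted p of 0.107, 0.298 and 0.366.

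Markers of other blood cells moved with the comparison. All 9 neutrophil and granulocyte precursor markers had a log2 difference above 0, and their summed level was 29071.5 to 36520.5 FPKM with compound PD, against 11361.5 to 17166.8 FPKM in DMSO. None of the 9 was at 0 FPKM, and S100a8 and S100a9 made up most of each sum. A higher level without overlap was found for 6 of the 9. Mpo and Ctsg overlapped DMSO, and without replicate 1 their log2 differences were −0.34 and −0.44. All 6 megakaryocyte markers were above 0 as well, with sums of 4147 to 7395 FPKM with compound PD against 2270 to 4482 FPKM in DMSO. The 7 macrophage markers summed to 23.95 to 30.74 FPKM with compound PD against 12.34 to 23.74 FPKM in DMSO, with 3 of 3 tested above 0 and C1qa, C1qb and Mrc1 under 1 FPKM throughout. The 5 endothelial and stromal markers summed to 17.12 to 28.86 FPKM with compound PD against 11.81 to 16.51 FPKM in DMSO, nearly all of it Pecam1. Mast cell and basophil markers had 4 of 5 tested above 0 and sums that overlapped, at 789 to 1683 FPKM with compound PD against 504 to 1004 FPKM in DMSO. The 8 erythroid progenitor markers summed to less with compound PD, without overlap. The part of all these in the levels of Fosl2, Nr4a1, Ier2 and Junb was not tested.

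**Figure D4:**
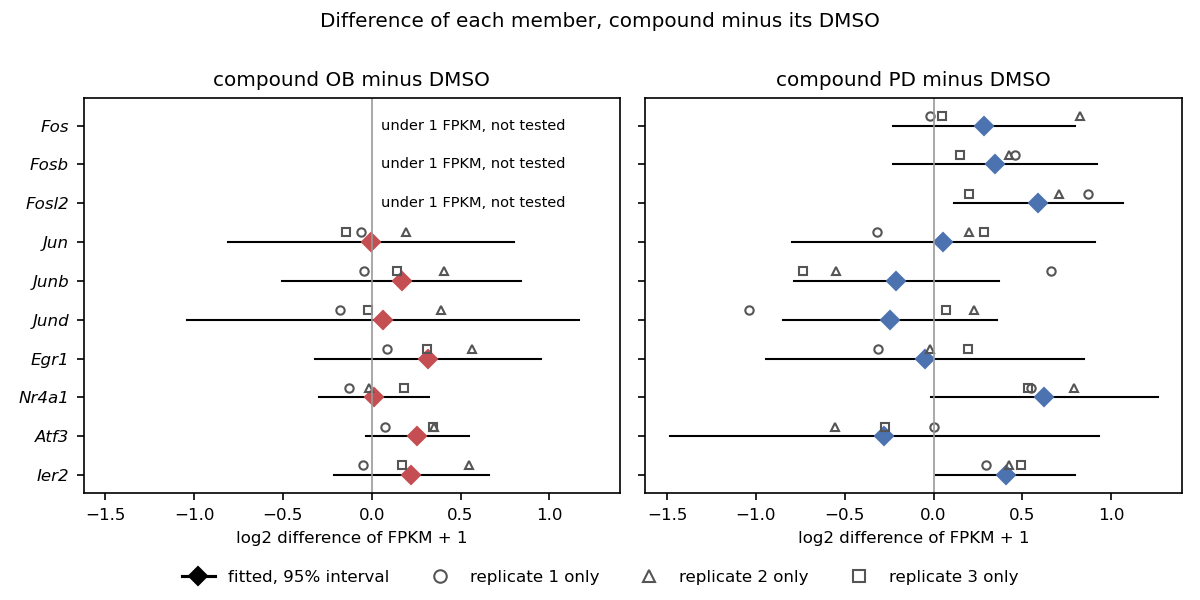
Log2 difference of FPKM + 1, compound minus its DMSO (x axis), for each member (y axis), with compound OB on the left and compound PD on the right. Diamonds with bars are the limma estimate and its 95% interval, and open symbols are the differences within each replicate number; every interval holds 0 except those of Fosl2 (0.11 to 1.07) and Ier2 (0.01 to 0.80) with compound PD.

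With compound OB none of the 7 members with a mean of at least 1 FPKM passed, in a comparison where limma called 0 of 10073 genes (0%) and 372 genes (3.69%) had an unadjusted p under 0.05, none of them a member. Taking the replicate numbers as pairs called 7 genes (0.0695%), again none of them a member. The median log2 difference of the 7 was 0.17 with 6 above 0, against 0.03 over all genes with 58.7% above 0. This median also turned on single libraries. Leaving out compound OB replicate 1 gave 0.0039, and leaving out replicate 2 or 3 of its DMSO gave 0.0047 or 0.05, with 4 of 7 above 0 in each case. Leaving out replicate 1 of the DMSO group gave 0.30 with 7 of 7 above 0. Jun was the member just below 0, at −0.00 (SE 0.34), and its means of 11.7 ± 4.63 FPKM with compound OB and 11.8 ± 5.13 FPKM in DMSO differed by less than their SD (n = 3 each).

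Atf3 was the only tested member without overlap between compound OB and DMSO, where a higher level without overlap was found for 5.31% of genes and a lower one for 3.42%. Its means were 5.03 ± 0.545 FPKM with compound OB and 4.04 ± 0.257 FPKM in DMSO (SD, n = 3 each), a ratio of 1.25 with a gap of 0.28 FPKM. The log2 difference was 0.26 (SE 0.12, 95% interval −0.03 to 0.55), with a limma adjusted p = 1.00, and 0.318 with pairs. Egr1 averaged 4.03 ± 1.51 FPKM with compound OB and 2.94 ± 0.709 FPKM in DMSO (SD, n = 3 each). Its differences within replicate numbers were 0.08, 0.56 and 0.31, and the fitted difference was 0.32 (SE 0.27, 95% interval −0.32 to 0.96). Egr1 and Atf3 were the tested members higher in all 3 pairs, as were 23.1% of all genes.

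Ier2 had a log2 difference of 0.22 (SE 0.18, 95% interval −0.21 to 0.66) and Junb of 0.17 (SE 0.28, 95% interval −0.50 to 0.84). Jund was at 0.06 (SE 0.46, 95% interval −1.04 to 1.17) and Nr4a1 at 0.01 (SE 0.13, 95% interval −0.30 to 0.32). With pairs the SE was 0.11 for each of these 2 genes. Each of the 7 members had a limma adjusted p of 1.00. Without replicate 1, limma called 1773 of 9967 genes (17.8%, and 15.4% as higher), and 4 of the 7 members were among the higher ones. Egr1 was then higher by 0.44 (limma adjusted p = 0.00601), Ier2 by 0.36 (0.00494), Atf3 by 0.35 (0.0316) and Junb by 0.27 (0.0489), each adjusted over all genes. With the 2 remaining pairs as a block, Egr1 (limma adjusted p = 0.0472) and Ier2 (0.0485) still passed and Atf3 (0.0784) and Junb (0.109) did not. The fit without replicate 1 rests on 2 libraries a group and draws its spread almost wholly from the other genes. Jun at 0.02, Nr4a1 at 0.08 and Jund at 0.18 did not pass there either. That fit keeps OB DMSO replicate 2, the library with Rn45s at 12380 FPKM, as 1 of 2 DMSO libraries. With replicate 2 left out instead, in the blocked fit, Egr1 was at 0.20, Atf3 at 0.21, Ier2 at 0.06 and Junb at 0.05. In that blocked fit 0 members were called.

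The effect of compound PD minus that of compound OB was tested over 12 libraries and 10311 genes listed in both sets. It addresses whether the 2 compounds moved a member by different amounts, though compound, dose and set go together. Limma called 0 genes (0%), while 7.38% had an unadjusted p under 0.05. Fos, Fosb and Fosl2 passed the filter only through the PD set and lay under 1 FPKM in the OB set, where a difference on this scale is held near 0. Their values of 0.30, 0.26 and 0.68 therefore largely restate the compound PD differences and are no comparison of the compounds, which leaves 7 members. Nr4a1 was the 1 of these 7 with an unadjusted p under 0.05, differing by 0.61 (SE 0.25, 95% interval 0.07 to 1.15, limma adjusted p = 0.581). The remaining differences were Ier2 0.18, Jun 0.06, Jund −0.31, Egr1 −0.37, Junb −0.38 and Atf3 −0.53, each with an interval that held 0. Without replicate 1, 5.32% of genes were called and 3.44% as lower, among them Junb at −0.92 (limma adjusted p = 0.0173) and Atf3 at −0.76 (limma adjusted p = 0.0477). With replicate number as a block in that fit neither was called, with limma adjusted p of 0.0747 for Junb and 0.102 for Atf3.

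Other genes of the same pathway were taken from lists. Over all genes 59.1% were above 0 with compound PD (median 0.06) and 58.7% with compound OB (median 0.03), for reading each list that follows. The list counts above 0 use all libraries, and were not made without replicate 1. Of 34 other immediate early genes, 24 were tested with compound PD, 18 had a difference above 0 (median 0.22) and none was called. With compound OB 20 were tested, 10 were above 0 (median −0.02) and none was called. Without replicate 1, where 17.8% of all genes were called, 5 of the 20 were called higher with compound OB, among them Per1 (log2 0.71, limma adjusted p = 1.13e-07) and Id1 (0.52, 2.56e-05). Lower were 2, Ier3 (−0.69, 1.85e-06) and Gadd45g (−0.44, 9.12e-04), again by limma adjusted p. With compound PD 1 of the 24 was then called, Gadd45a, which was higher, where 2.12% of all genes were called. Egr2, Egr4, Nr4a3, Arc, Cyr61, Ctgf and Trib1 were under 1 FPKM in every library of both sets. Ier3, an early gene that restrains cell death, had 5.30, 3.70 and 3.28 FPKM with compound OB, against 6.62, 6.23 and 6.22 FPKM in DMSO, without overlap (log2 −0.55, SE 0.17). With compound PD it lay on the other side, also without overlap, at 11.94, 13.28 and 11.77 FPKM against 9.92, 7.99 and 10.40 FPKM in DMSO (log2 0.36, SE 0.18), and the difference between the compounds was not tested for it here. Id1, an inhibitor of bHLH factors, had 14.29, 18.91 and 20.43 FPKM with compound OB against 11.60, 11.32 and 15.78 FPKM in DMSO (log2 0.44, SE 0.18). With compound PD Id1 had 20.10, 15.09 and 19.30 FPKM, against 8.67, 11.14 and 13.88 FPKM in DMSO, without overlap (log2 0.66, SE 0.22, limma adjusted p = 0.295).

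Among 13 other AP-1 and bZIP partners, 7 were tested with compound PD (3 above 0, median −0.15) and 6 with compound OB (5 above 0, median 0.19), and none was called. Without replicate 1, 3 of the 6 were called higher with compound OB (Fosl1, Batf and Mafk), against 15.4% of all genes. With compound PD 0 of the 7 were called. Maff, which passed the filter in the OB set only without replicate 1, was also called higher with compound OB (log2 0.69, limma adjusted p = 1.37e-04). Jdp2, which pairs with Jun proteins and represses AP-1 sites, had 17.09, 15.63 and 14.76 FPKM with compound PD, against 6.33, 8.11 and 8.61 FPKM in DMSO. Its groups were far apart for their spread, with a log2 difference of 0.96 (SE 0.19, limma adjusted p = 0.138), and it was under 1 FPKM in the OB set. Nfe2, the erythroid and megakaryocytic bZIP factor that pairs with small Maf proteins, had 253.74, 253.65 and 236.12 FPKM with compound PD, against 394.53, 237.42 and 222.27 FPKM in DMSO, with overlap. In the OB set it had 197.45, 156.83 and 150.07 FPKM with compound OB, against 213.67, 137.90 and 155.30 FPKM in DMSO.

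Upstream factors were present in both sets, and none was called with all libraries. Of 17 factors and coactivators, 17 were tested with compound PD (10 above 0, median 0.10) and 16 with compound OB (11 above 0, median 0.10). Without replicate 1, 4 of the 16 were called higher with compound OB (Srf, Ep300, Crtc2 and Crtc3), against 15.4% of all genes. Srf was then at log2 0.48 (limma adjusted p = 1.80e-04), and with compound PD 0 were called. Srf, the factor that binds the CArG box, had 39.69, 31.79 and 22.02 FPKM with compound PD against 28.41, 19.29 and 22.35 FPKM in DMSO, with overlap. Crem, a CREB relative whose short form represses CRE genes, had 25.44, 23.43 and 27.73 FPKM with compound PD against 80.91, 30.81 and 21.78 FPKM in DMSO, where replicate 1 alone set the spread. All 18 MAP kinase cascade genes were tested in both sets, with 11 above 0 with compound PD (median 0.09) and 10 above 0 with compound OB (median 0.02). None was called with all libraries. Without replicate 1 the calls with compound OB were 3 higher (Rps6ka1, Map2k2 and Map2k7) and 1 lower (Map2k1), against 0 with compound PD. Of all genes 15.4% were called higher there and 17.8% in either direction, so 3 of 18 is near the share of all genes. Mapk3, which codes for ERK1, had 72.18, 78.75 and 72.62 FPKM with compound PD against 35.53, 55.74 and 61.98 FPKM in DMSO, without overlap (log2 0.57, SE 0.21, limma adjusted p = 0.368).

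The 11 feedback inhibitors of MAP kinases that were tested had 8 above 0 with compound PD (median 0.35) and 10 above 0 with compound OB (median 0.19), with none called. Without replicate 1, 3 of the 11 were called higher with compound OB (Spry1, Spry2 and Dusp7), against 15.4% of all genes, and 0 with compound PD. Dusp6, the phosphatase that turns off ERK, had 6.65, 5.69 and 6.03 FPKM with compound PD, against 3.99, 4.09 and 3.88 FPKM in DMSO, without overlap (log2 0.51, SE 0.20, limma adjusted p = 0.392). Spry1, an inhibitor of receptor tyrosine kinase signals, had 13.28, 7.28 and 6.30 FPKM with compound OB against 9.60, 3.38 and 3.55 FPKM in DMSO, higher in each pair but with overlap (log2 0.68, SE 0.41), and without replicate 1 at 0.80 (limma adjusted p = 7.44e-09). Heat shock genes, which respond to stress and handling, had 0 of 7 above 0 with compound PD (median −0.11) and 0 of 7 with compound OB (median −0.10), and none was called with or without replicate 1.

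The genes whose levels followed the members most closely were sought over the 12 libraries, after each set's own mean was taken off the log2 values. Against the mean of the 7 members with at least 1 FPKM in both sets, the highest Pearson r among 7180 genes were those of Ap2b1 (0.959), Nipal3 (0.947), Tab2 (0.940), Trappc9 (0.927), Ap3b1 (0.923), R3hdm2 (0.922), Galnt2 (0.920) and Mknk1 (0.913). For Fos alone they were lower, at 0.812 for Pet100, 0.811 for Slc24a5, 0.797 for Tcta, 0.778 for Sft2d2 and 0.776 for Hmox2. These are descriptions over libraries that share their sets and the replicate 1 difference, and Fos varied around a level under 1 FPKM in 6 of the 12.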

How the data were processed

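Each of the 12 RNA libraries has a table of FPKM values deposited by the authors. A Qiagen column kit and Illumina library protocols were used, per the labels' protocols, and STAR and mm10 are named, per the submitters' processing notes. Which program gave FPKM, with which annotation and whether by strand, is not stated in the sources read here. Without depth no counting error can be given, and overlapping genes have uncertain values.

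Names turned into dates (27 in each set), names split at a hyphen (379, all of the OB set) and repeated names (51 of the OB set, 185 of the PD set) were left out of 24054 entries for OB and 54752 for PD. The main test was limma 3.58.1 in R 4.3.3 (statmod 1.5.0; mean-variance trend, robust moderation), run separately for compound OB and compound PD against their DMSO libraries. It used log2(FPKM + 1) of genes averaging 1 FPKM or more in the 6 libraries concerned. Two-sided p-values were adjusted over all genes tested (Benjamini-Hochberg), and a call means an adjusted p under 0.05. A contrast of 4 group means over 12 libraries tested the compounds' effects against each other. "Without overlap" means that every compound library lay on the same side of every DMSO library.

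The fits were first tested on simulated data with independent noise, without the replicate 1 difference or any pairs. Of 100 genes changed by 1 on the log2 scale, 100 were recovered for OB, 73 for PD and 58 in the difference. False calls were 10, 5 and 7, and these numbers hold only for such noise. In the OB set, same-numbered compound and DMSO libraries deviated together from their group means (r = 0.831, 0.434 and 0.652), so replicate numbers were taken to pair those samples. This rests on the data, since no label states what a number stands for. Different-numbered libraries gave r = 0.413 (compound OB 3 with DMSO 2) and 0.327 (compound OB 2 with DMSO 3). Those that involved replicate 1 ran from −0.712 to −0.536. The values thus set replicate 1 apart but separate replicates 2 and 3 only weakly.

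The members and the gene lists were chosen with earlier results of these data known. Named genes are the 10 members, some of the 4 genes of each list with the largest change among those averaging 5 FPKM or more (none was called), and the 8 or 5 genes most correlated with the members or with Fos. Dusp6, Id1 and most others named from lists were picked from those 4 after their values were seen. Also named were Fosl1, Batf, Maff, Crtc3, Spry2 and Gadd45a, called without replicate 1, and Ier3 in the PD set, which differed without overlap. Genes under 1 FPKM and single markers were named as well. Motifs were searched by exact letters in RefSeq promoters of GRCm38.p6. Alternatives were the pseudocount, the filter, scaling, plain moderation, the replicate block and leaving out libraries. Python 3.11.15 with pandas 2.3.3, numpy 2.4.6 and matplotlib 3.10.9 served for tables and figures.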

Additional observations from a re-analysis of the deposited data

How the results depend on the processing

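The 27 log2 differences of members were recomputed under alternatives that gave 565 values, of which 506 kept their direction and their side of the threshold, 9 passed it and 50 changed sign, none of the 50 with a call. With all libraries, no setting of scaling, filter, pseudocount, moderation or block called a member. With median-ratio scaling, alone or with the replicate block, Nr4a1 with compound OB was at −0.00376, Jun with compound PD at −0.0425 and Jun in the difference between compounds at −0.0209. With a pseudocount of 0.1 Fosb in that difference was at −0.0961. With all libraries the members' median ran from 0.0038 (4 of 8 above 0, filter of 5 FPKM) to 0.18 with compound PD, and was 0.07 (5 of 10 above 0) with median-ratio scaling. With compound OB it ran from 0.073 (7 of 10 above 0, no filter) to 0.18.

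With any 1 library left out, no member was called. With compound OB Jun then ran from −0.284 to 0.304, Junb from −0.0166 to 0.459, Jund from −0.286 to 0.534 and Nr4a1 from −0.0591 to 0.0909. With compound PD Atf3 ran from −0.857 to 0.165, Egr1 from −0.356 to 0.393, Jun from −0.209 to 0.506 and Jund from −0.431 to 0.0787. In the difference Egr1 ran from −0.675 to 0.0745, Ier2 from −0.00830 to 0.319, Jun from −0.249 to 0.509 and Jund from −0.781 to 0.0385. Genes called ran from 0 to 14 with compound OB (14 without OB DMSO replicate 1), from 0 to 167 with compound PD (167 without PD DMSO replicate 1, 0 without any compound PD library) and from 0 to 15 in the difference (15 without PD DMSO replicate 1, 4 without PD DMSO replicate 2, 1 without PD DMSO replicate 3).

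Without replicate 1 of both groups and no block, a choice made after seeing the data, 1773, 252 and 547 genes and 4, 1 and 2 members were called with compound OB, with compound PD and in the difference. Without replicate 1, with or without the block, Jun with compound OB was at 0.0242, Egr1 with compound PD at 0.0857 and Jund with compound PD at 0.150. With the replicate block and without replicate 1, 2 or 3, genes called were 1133, 146 and 3 with compound OB and 206, 70 and 82 with compound PD, and 40 in the difference without replicate 1. Members called in those blocked fits without replicate 1 were 2 with compound OB (Egr1 and Ier2) and 0 with compound PD, where Junb was at an adjusted p of 0.0667, and in the difference. In blocked fits without replicate 2, Jund with compound OB was at −0.0981, Jun with compound PD at −0.0154 and Fos in the difference at −0.0850. In blocked fits without replicate 3, Jun was at 0.0679 with compound OB, −0.0591 with compound PD and −0.127 in the difference, Nr4a1 with compound OB at −0.0727 and Junb with compound PD at 0.0538.

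Genes called with all libraries were 0 with compound OB, but 1 with a pseudocount of 5, 7 with the replicate block and 147 with the block and median-ratio scaling. With compound PD they were 3, but 1 with a pseudocount of 5, 0 with no filter, 0 with plain moderation, 41 with the replicate block and 0 with the block and median-ratio scaling. In the difference they were 0, but 3 with a pseudocount of 0.1, 3 with no filter, 6 with plain moderation and 0 with the block. The cause was not tested. In the PD set same-numbered libraries did not deviate together (r = −0.00509, −0.0283 and −0.0200), so there the block joins samples that share only a number. Median-ratio scaling put 5394 of 11868 genes above 0 with compound PD, against 7025 of 11887 as deposited. Depth is unknown, so low members such as Nr4a1 and the Fos family of the OB set have no counting error here.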
